A study of Mus musculus with 32 samples.

Results

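The Myc network is described here by 9 of the 24421 genes in the count table, namely Myc, Mycn, Mycl, Max, Mxd1, Mxd3, Mxd4, Mxi1 and Mnt. They were chosen by symbol, with earlier results of these data known. All 9 passed the filter on low counts, as did 14154 genes in all. RNA-seq was performed on hematopoietic stem and progenitor cells sorted from the bone marrow of female C57BL/6 mice that were 10-week-old (Young) or 20-month-old (Aged), with no transgene and no treatment in either group. According to the study, marrow of mice of each age was pooled and sorted in duplicate. This gave 2 libraries for each of 8 fractions at 2 ages, or 16 groups and 32 libraries. The study also calls the duplicates biologically independent, and whether both libraries of a group came from 1 pool is not given. The LSK compartment (Lin-, Sca-1+, c-kit+, and negative for the antigen written IL-7 in the labels) was divided into HSCs (CD34-, CD150+, CD48-, Flt3-), MPP1 (as HSCs but CD34+), MPP2 (CD34+, CD150+, CD48+, Flt3-), MPP3 (as MPP2 but CD150-) and MPP4 (as MPP3 but Flt3+). Outside it stood GMPs (Sca-1-, c-kit+, FcgR+, CD34+), MEPs (Sca-1-, c-kit+, FcgR-, CD34-) and CLPs (IL-7+, with low Sca-1 and low c-kit). Because the duplicates came from pooled marrow, p-values measure the spread between libraries, which may be technical, and not the spread between mice.

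Myc, N-Myc and L-Myc (from Myc, Mycn and Mycl) are basic helix-loop-helix leucine zipper proteins that bind DNA as dimers with Max and activate genes of ribosome production, nucleotide synthesis and growth. Max also pairs with Mxd1, Mxd3, Mxd4, Mxi1 and Mnt, and these dimers bind the same E-box sites and bring in Sin3 corepressor complexes with histone deacetylases. In mouse marrow, Myc and Mycn are known for their joint role in the proliferation and survival of stem cells, and Mxd1 for its link to cell cycle exit during granulocyte differentiation.

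Promoters are shown first, because the proteins of this network bind the canonical E-box, CACGTG, and its presence in the members' own promoters is a sequence feature that the choice of members did not use. RefSeq windows of 250 bases before to 50 bases after a gene's start (build GRCm38.p6) were matched for 8 of the 9 members, with no entry for Myc. CACGTG, which reads the same on both strands, was found in the windows of Max, Mxd4 and Mnt, or 3 of 8 members (37.5%), against 8.09% of all 27025 genes with a window, 11.5% of the 10646 tested genes with one, and 14 of 49 genes (28.6%) of the Myc target list used below. The 3 windows that hold it are followed here by those of Mycn and Mxd1, which do not but which share with Mxd4 the age differences in MPPs described below. Each is written 5′ to 3′ along the gene's strand, and capitals mark CACGTG.
Max, chr12:76962199-76962498, minus strand: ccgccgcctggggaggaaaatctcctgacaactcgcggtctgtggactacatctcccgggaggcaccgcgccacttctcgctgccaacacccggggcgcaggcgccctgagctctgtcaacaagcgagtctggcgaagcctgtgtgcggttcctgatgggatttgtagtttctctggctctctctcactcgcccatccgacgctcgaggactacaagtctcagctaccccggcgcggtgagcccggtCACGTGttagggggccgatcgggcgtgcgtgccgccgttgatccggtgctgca
Mxd4, chr5:34187661-34187960, minus strand: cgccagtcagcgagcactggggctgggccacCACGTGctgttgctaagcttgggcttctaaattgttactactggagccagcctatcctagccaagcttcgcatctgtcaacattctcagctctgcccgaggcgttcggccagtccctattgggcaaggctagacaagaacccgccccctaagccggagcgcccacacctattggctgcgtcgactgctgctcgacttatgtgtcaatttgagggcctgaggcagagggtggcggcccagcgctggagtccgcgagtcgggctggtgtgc
Mnt, chr11:74830674-74830973, plus strand: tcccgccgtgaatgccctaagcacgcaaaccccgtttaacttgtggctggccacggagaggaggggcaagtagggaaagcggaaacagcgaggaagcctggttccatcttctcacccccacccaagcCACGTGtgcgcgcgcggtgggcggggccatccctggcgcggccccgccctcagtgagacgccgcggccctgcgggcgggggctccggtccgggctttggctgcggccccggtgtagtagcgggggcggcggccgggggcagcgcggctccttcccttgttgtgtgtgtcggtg
Mycn, chr12:12941787-12942086, minus strand: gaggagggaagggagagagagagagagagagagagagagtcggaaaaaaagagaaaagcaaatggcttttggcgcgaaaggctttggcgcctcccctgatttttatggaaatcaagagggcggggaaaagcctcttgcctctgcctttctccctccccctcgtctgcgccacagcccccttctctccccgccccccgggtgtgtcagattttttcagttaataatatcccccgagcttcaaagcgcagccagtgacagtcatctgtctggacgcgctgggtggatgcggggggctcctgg
Mxd1, chr6:86669110-86669409, minus strand: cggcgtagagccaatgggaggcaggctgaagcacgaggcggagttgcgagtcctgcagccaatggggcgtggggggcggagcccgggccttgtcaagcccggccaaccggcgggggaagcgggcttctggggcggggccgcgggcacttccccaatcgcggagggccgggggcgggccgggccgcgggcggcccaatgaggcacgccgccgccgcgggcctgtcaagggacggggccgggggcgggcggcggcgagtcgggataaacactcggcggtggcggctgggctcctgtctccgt
The E-box began 3 bases before the start of Max, 219 bases before that of Mxd4 and 123 bases before that of Mnt. A match of these letters is a description of the window, and binding was not measured by it.

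The libraries held 11237384 to 17723245 counts each. Levels are given as CPM, the counts of a gene per 1000000 counts of its library, and a gene with 3 counts, taken here as the floor, stood at 0.186 to 0.281 CPM. Library sizes were scaled by the trimmed mean of M values (TMM), and levels are given per kb of annotated exon (GRCm38, GENCODE M21) where genes are compared with each other. No pair of duplicates agreed within sampling noise. Transcripts of the sorted antigens followed most of the gates: mean Flt3 was 1063 CPM in Young and 732 CPM in Aged MPP4, and mean Il7r 158 and 195 CPM in CLPs. Cd34 was lower in HSCs (204 CPM Young, 180 CPM Aged) than in MPP1 (654 and 680 CPM), but not absent from the CD34- gate. In bulk samples fewer cells of a type and less RNA per cell cannot be told apart, and this holds for every level below.

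The activators did not share a pattern over the hierarchy. Myc was present at 358 to 846 CPM in all 8 fractions, Mycn stood beside it in HSCs and was scarce in GMPs, and Mycl was a CLP transcript. Per kb of exon, mean Myc was 193 CPM per kb in Young HSCs against 124 CPM per kb for Mycn and 0 for Mycl, so that Mycn made up 39.1% of the activator transcripts. In Aged HSCs the Mycn share was 45.8%, and 1 of the 2 Aged HSC libraries held the same number of counts, 4705, for Myc and for Mycn. In Young CLPs, Mycl made up 15.6% and Mycn 5.99%. In Young GMPs the Myc share was 99.8%.

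**Figure D1:**
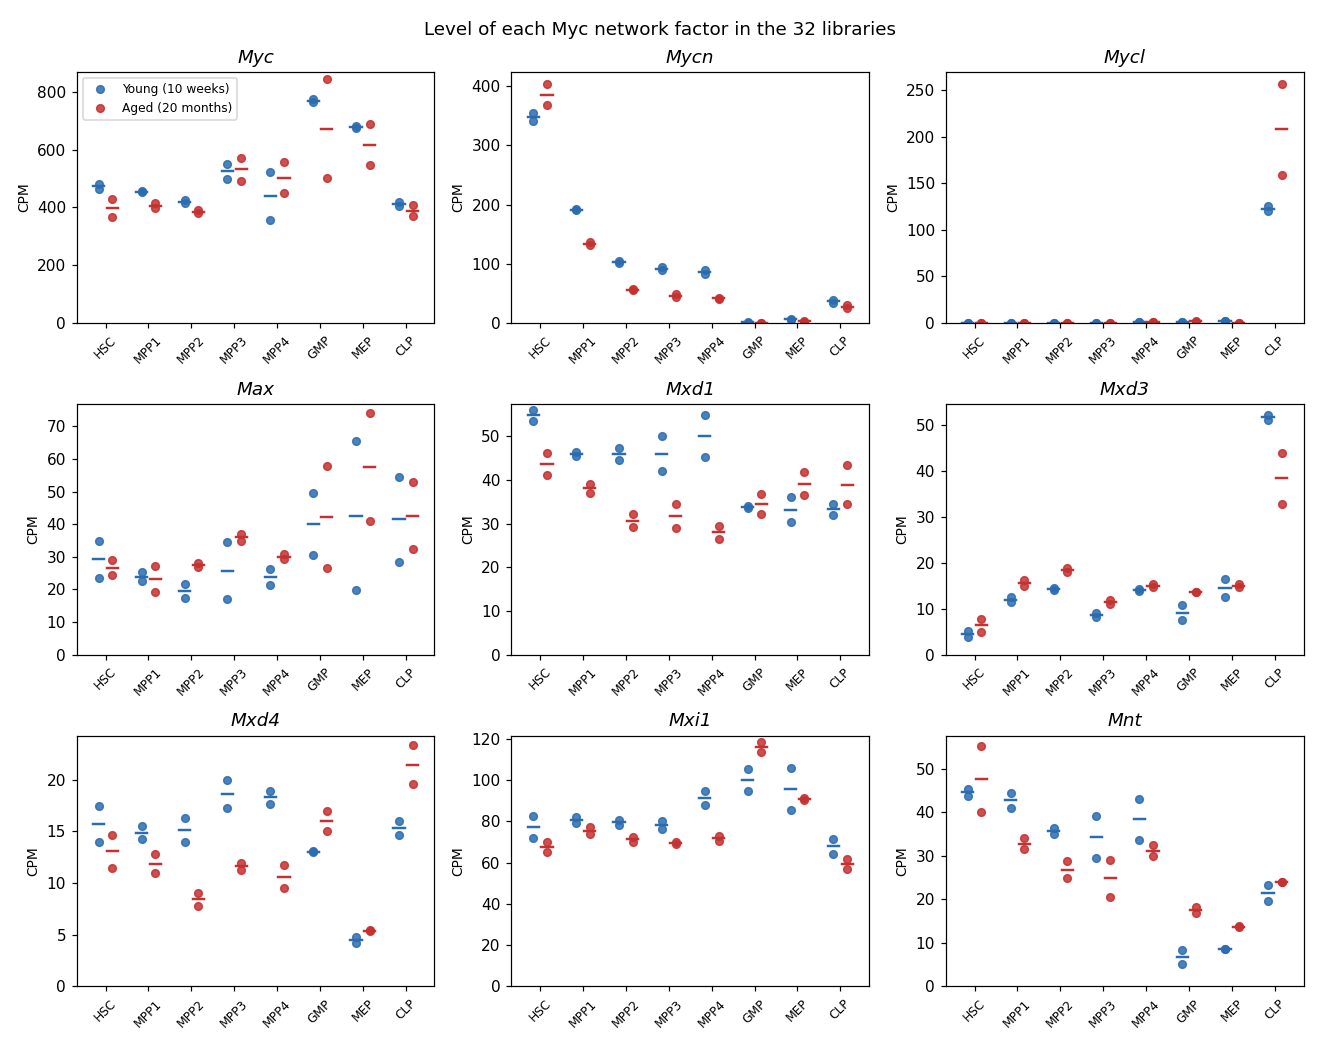
Level of each of the 9 genes in CPM (vertical axis, linear, a separate scale for each gene) in the 8 sorted fractions. Each point is 1 library, each bar the mean of 2, Young in blue and Aged in red. Mycn declined from HSCs through the MPPs to GMPs, Mycl and Mxd3 were highest in CLPs, and the duplicates of Max lay far apart in GMPs, MEPs and CLPs.

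Myc (chr15:61985391-61990374) encodes the family's most widely used activator. Its counts gave 481 and 465 CPM in the Young HSC libraries and 368 and 430 CPM in the Aged ones. Young MPP1 to MPP4 libraries ranged from 358 to 551 CPM and Aged ones from 381 to 573 CPM. Young GMP libraries had 765 and 776 CPM and Aged ones 846 and 501 CPM. MEPs had 675 and 684 CPM (Young) and 691 and 546 CPM (Aged), and CLPs 419 and 406 CPM (Young) and 371 and 409 CPM (Aged). GMPs thus had the highest mean at both ages. In Young mice their libraries lay above those of MEPs without overlap. In Aged mice the lower GMP library (501 CPM) lay below both MEP libraries. It also lay below MPP3 replicate 2 (573 CPM) and MPP4 replicate 1 (559 CPM). Against HSCs, and taking the mean of both ages, Myc was higher in GMPs (log2 fold change 0.73 ± 0.13 SE, adjusted p = 1.7e-05, edgeR quasi-likelihood test with Benjamini-Hochberg adjustment, n = 4 libraries in each fraction) and in MEPs (0.58 ± 0.12, adjusted p = 0.000227), and it was not called in any other fraction at the threshold of 0.01 used throughout.

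No age difference of Myc was called in any fraction. The log2 fold changes of Aged over Young lay between -0.25 ± 0.18 SE in HSCs and 0.19 ± 0.18 in MPP4, and their adjusted p-values between 0.44 and 0.977 (edgeR quasi-likelihood test, n = 2 libraries in each group). Averaged over MPP1 to MPP4 the difference was -0.02 ± 0.09 (adjusted p = 0.931). Young and Aged libraries of Myc overlapped in MPP3, MPP4, GMPs, MEPs and CLPs, and in HSCs, MPP1 and MPP2 both Aged libraries lay below both Young ones.

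Mycn (chr12:12936093-12941914) was the member with the steepest order over the fractions. At both ages its level ran from HSC down through MPP1, MPP2, MPP3, MPP4, CLP and MEP to GMP, and no neighbours in that order had overlapping libraries, though MPP3 and MPP4 of Young mice nearly met. Young HSC libraries had 355 and 341 CPM, Young MPP1 190 and 192 CPM, Young MPP2 102 and 105 CPM, Young MPP3 89.7 and 93.7 CPM, and Young MPP4 82.2 and 89.6 CPM. Aged HSC libraries had 368 and 404 CPM, Aged MPP1 131 and 136 CPM, Aged MPP2 56.9 and 54.9 CPM, Aged MPP3 43.2 and 47.9 CPM, and Aged MPP4 41.0 and 41.6 CPM. Aged libraries therefore started slightly above the Young ones in HSCs and were below them in each of the 4 MPP fractions, without overlap in any of the 5. Mycn was lower in all 7 other fractions than in HSCs, by -1.20 ± 0.13 (log2, SE) in MPP1, -2.62 ± 0.14 in MPP4 and -3.54 ± 0.14 in CLPs (adjusted p = 1.26e-07, 2.69e-13 and 1.33e-15, edgeR).

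With age, Mycn fell by 0.89 on the log2 scale in MPP2 (SE 0.19, adjusted p = 0.00247, edgeR), by 1.01 in MPP3 (SE 0.19, adjusted p = 0.000488) and by 1.06 in MPP4 (SE 0.19, adjusted p = 0.000259). In MPP1 the estimate was -0.52 ± 0.18 and was not called (adjusted p = 0.0637), although DESeq2 (-0.51, adjusted p = 2.44e-09) and an edgeR fit to the 4 MPP1 libraries alone (-0.51, adjusted p = 0.000181) called it, and in HSCs it was 0.15 ± 0.18 (adjusted p = 0.691). The mean difference over the 4 MPP fractions was -0.87 ± 0.09 (adjusted p = 1.24e-07), and the age difference in HSCs exceeded it by 1.02 ± 0.20 (adjusted p = 0.00314), a comparison in which 3.01% of all genes were called and Mycn was the only member. That call was lost without Young HSC replicate 1 (0.99, adjusted p = 0.0215), without Young HSC replicate 2 (0.92, adjusted p = 0.0420) and without Aged HSC replicate 2 (0.93, adjusted p = 0.0130). The MPP2 call was lost without any 1 of its 4 libraries (adjusted p = 0.0217 to 0.0385) and the MPP3 call without Aged MPP3 replicate 1 (-0.91, adjusted p = 0.0118), whereas the MPP4 call and the mean over MPPs were kept under every library left out. In HSC libraries the sum of 6 neutrophil markers was 55.5 to 61.2 CPM in Young and 274 to 305 CPM in Aged mice (5 of 6 called higher). That of 6 megakaryocyte markers was 338 to 345 and 556 to 614 CPM (2 of 6 higher). Basophil and mast cell markers summed to 508 to 515 CPM in Young and 496 to 589 CPM in Aged mice (4 of 6 higher). Of 5 tested macrophage markers 1 was called lower. Their part in the HSC results was not tested.

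Outside the LSK compartment Mycn was scarce. Young MEP libraries had 6.21 and 5.53 CPM and Aged ones 2.72 and 1.98 CPM, a fall by 1.33 (SE 0.34, adjusted p = 0.00452, edgeR) that was lost without Young MEP replicate 1 (-1.27, adjusted p = 0.0249), without Aged MEP replicate 1 (-1.60, adjusted p = 0.0137) and without Aged MEP replicate 2 (-1.15, adjusted p = 0.0609), and in a fit to the 4 MEP libraries alone (-1.34, adjusted p = 0.0431). GMPs had 0 and 19 counts in the Young libraries and 0 and 3 in the Aged ones. In CLPs the Young libraries had 32.9 and 39.3 CPM and the Aged ones 24.9 and 30.2 CPM, with a difference of -0.39 ± 0.20 that was not called (adjusted p = 0.193) but was in DESeq2 (-0.38, adjusted p = 0.00162). Aged GMPs lay at least 1441-fold below Aged HSCs, with the floor of 3 counts per library standing in for the Aged GMP level.

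Mycl (chr4:122995652-123002485) was chiefly a CLP transcript. It had 0 counts in all 4 HSC libraries, at most 5 counts in any MPP1, MPP2 or MPP3 library, 7 to 17 counts in MPP4 and 9 to 23 counts in GMPs. Young CLP libraries had 120 and 126 CPM and Aged ones 257 and 159 CPM, or at least 561-fold and at least 956-fold above HSCs of the same age against the floor per library. Both Aged CLP libraries exceeded both Young ones, by 0.76 ± 0.22 on the log2 scale (adjusted p = 0.0253, edgeR), which was not called. It was called at 1.05 (adjusted p = 0.00804) without Aged CLP replicate 2, the lower of the Aged pair, and by DESeq2 (0.77, adjusted p = 0.00954). In MEPs, Mycl had 24 and 33 counts in the Young libraries and 0 in both Aged ones, at least 7.24-fold lower, and this was called (adjusted p = 0.000239) except in a fit to the 4 MEP libraries alone (adjusted p = 0.0140). Transcripts of 7 B lineage markers moved with it: their sum was 182 to 193 CPM in Young MEP libraries and 0.43 to 1.22 CPM in Aged ones, where Cd79a, Ebf1, Pax5 and Igll1 were at 0. Macrophage markers summed to 5.31 to 7.75 CPM in Young and 0 to 0.172 CPM in Aged MEPs (3 of 5 tested called lower). Of 8 transcripts of sorted antigens 5 were called lower in Aged MEPs, and of 6 neutrophil markers 1 was called higher. The part of all these transcripts in the Mycl and Mycn differences in MEPs was not tested.

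Max (chr12:76937269-76962201), the shared partner of the other members, ranged from 17.0 to 74.1 CPM over the 32 libraries and was called with age in no fraction. Its duplicates disagreed more than those of the other members with counts in all 16 groups. The median fold between duplicates was 1.43 for Max, 1.04 to 1.15 for Myc, Mxd1, Mxd3, Mxd4, Mxi1 and Mnt, and 1.09 over tested genes, and 91.9% of tested genes had a smaller median than Max. The widest pair was Young MEP, with 19.7 and 65.6 CPM. Aged libraries lay above Young ones without overlap in MPP2 (28.0 and 26.9 against 21.8 and 17.3 CPM), MPP3 and MPP4, and overlapped with them elsewhere. The estimates in those 3 fractions were 0.49 ± 0.47, 0.48 ± 0.46 and 0.33 ± 0.46 (adjusted p = 0.546, 0.509 and 0.663, edgeR). A fit to the 4 MPP2 libraries alone called it (0.50, adjusted p = 0.00842).

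**Figure D2:**
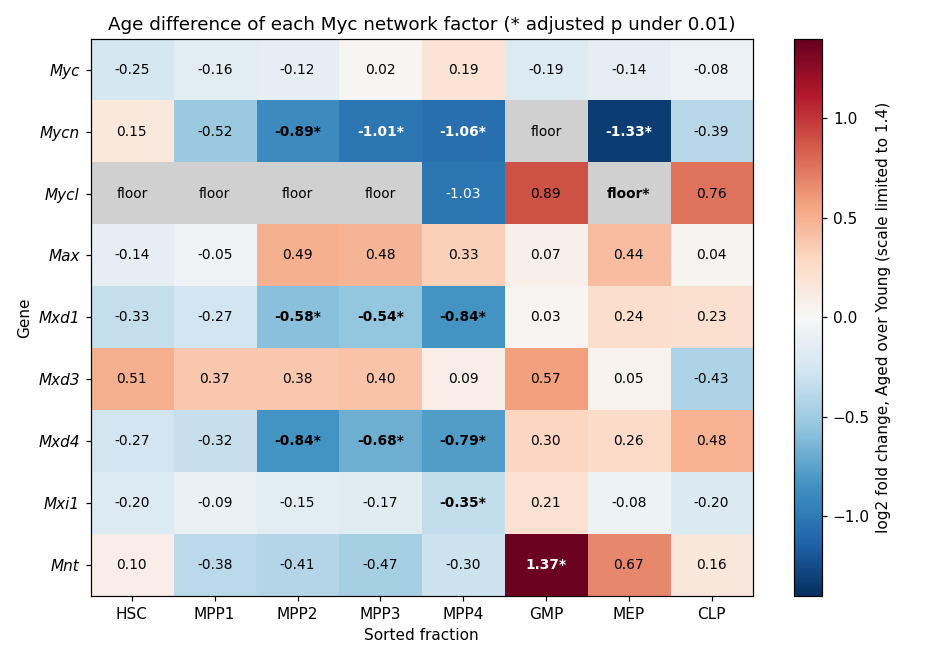
Log2 fold change of Aged over Young for each gene (rows) and fraction (columns), blue for lower and red for higher in Aged, with an asterisk at an adjusted p under 0.01 (edgeR, 2 libraries in each group). Grey cells marked floor have both libraries of at least 1 age at 3 counts or fewer. Of 72 cells, 13 were called, 12 of them lower in Aged. Over all tested genes 5.4% (HSCs) to 20.8% (MEPs) were called in a fraction, with 235 of 764 and 1658 of 2943 lower in Aged.

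Among 72 tests of a member in a fraction, 13 passed with age, and 12 of them were lower in Aged. Over all genes, calls lower in Aged were 235 of 764 in HSCs, 296 of 963 in MPP1 and 469 of 1105 in MPP2. They were 820 of 1972 in MPP3, 888 of 2347 in MPP4 and 1269 of 2674 in GMPs. MEPs had 1658 of 2943 and CLPs 670 of 1478. In HSCs 0 of 9 members were called, where 5.4% of all tested genes were, and in MPP1 0 of 9 (6.8% of all genes). Of the 9 members, 3 fell in MPP2 (7.81% of genes called) and 3 in MPP3 (13.9%), in both cases Mycn, Mxd1 and Mxd4, and 4 fell in MPP4 (16.6%), where Mxi1 joined them. Mnt alone was called in GMPs (18.9%), where it rose, Mycn and Mycl fell in MEPs (20.8%), and 0 of 9 were called in CLPs (10.4%). The unadjusted edgeR p was under 0.05 for 3 members in HSCs, 3 in MPP1 and 4 in CLPs, where DESeq2 called 0, 1 and 2. Without Young MPP2 replicate 1 or Aged MPP2 replicate 2 no member was called in MPP2, and without Aged MPP3 replicate 1 none in MPP3. In the mean over MPPs 6 of 9 members were called, against 36.7% of genes.

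The antagonists called lower in each of MPP2, MPP3 and MPP4 were Mxd1 and Mxd4. Mxi1 and Mnt, described below, were also called lower in the mean over MPPs. Mxd1 (chr6:86647042-86669161), which encodes the founding Mxd repressor, had 53.6 and 55.99 CPM in Young and 46.2 and 41.1 CPM in Aged HSCs. MPP1 had 46.5 and 45.4 CPM (Young) against 37.1 and 39.2 CPM (Aged), and MPP2 47.2 and 44.6 CPM against 29.2 and 32.1 CPM. In MPP3 the Young libraries had 42.1 and 49.97 CPM and the Aged ones 28.9 and 34.5 CPM, and in MPP4 they had 54.95 and 45.2 against 26.6 and 29.5 CPM. The Aged libraries were below the Young ones without overlap in all 5 LSK fractions. Outside the LSK compartment the order was not kept, since Aged MEP libraries (36.5 and 41.9 CPM) lay above Young ones (30.3 and 36.03 CPM) and those of GMPs and CLPs overlapped. Young HSCs had the highest mean, and in Young mice the libraries of HSC and MPP4 and of each next fraction down to MPP2 overlapped.

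Mxd1 fell by 0.58 (SE 0.13) in MPP2, by 0.54 (SE 0.13) in MPP3 and by 0.84 (SE 0.13) in MPP4 (adjusted p = 0.00408, 0.00446 and 6.12e-05, edgeR). Over the 4 MPP fractions it fell by 0.56 (SE 0.07, adjusted p = 4.06e-07). In HSCs the estimate of -0.33 ± 0.13 was not called (adjusted p = 0.109), and it differed from the MPP mean by 0.23 ± 0.14 (adjusted p = 0.381). The CLP estimate was 0.23 ± 0.13 (adjusted p = 0.258), and it exceeded the MPP mean by 0.78 ± 0.15 (adjusted p = 0.000277). In that comparison 3 members were called against 22.6% of genes, and DESeq2 also called Mycn (0.51, adjusted p = 2.32e-05). The Mxd1 call was lost without Aged CLP replicate 1 (0.59, adjusted p = 0.0129). The MPP2 call was lost without any 1 of its 4 libraries (adjusted p = 0.0215 to 0.0779). In MPP3 it was lost without Young replicate 2 (-0.38, adjusted p = 0.110), without Aged replicate 1 (-0.39, adjusted p = 0.104) and without Aged replicate 2 (-0.64, adjusted p = 0.0107), and in a fit to the 4 MPP3 libraries alone (-0.52, adjusted p = 0.0321).

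Mxd4 (chr5:34173883-34187720), another Sin3-recruiting repressor, moved in the same direction at a lower level. MPP2 libraries had 16.3 and 13.9 CPM (Young) against 9.09 and 7.81 CPM (Aged), MPP3 libraries 19.99 and 17.3 against 11.99 and 11.3 CPM, and MPP4 libraries 17.6 and 18.9 against 9.495 and 11.7 CPM. HSCs had 14 and 17.5 CPM in Young and 11.5 and 14.7 CPM in Aged libraries, which overlapped. In CLPs the order was turned, with 14.6 and 16.04 CPM in Young and 23.3 and 19.5 CPM in Aged libraries, and also in GMPs, with 13.04 and 13.1 against 17 and 15.05 CPM. The same order held in MEPs, with 4.16 and 4.81 against 5.34 and 5.42 CPM. That estimate of 0.26 ± 0.19 was not called (adjusted p = 0.312, edgeR). Mxd4 fell by 0.84 in MPP2, 0.68 in MPP3 and 0.79 in MPP4 (SE 0.16 each, adjusted p = 0.00154, 0.00375 and 0.000989, edgeR), and by 0.66 over the MPPs (SE 0.08, adjusted p = 8.6e-07). Its estimates were 0.48 ± 0.16 in CLPs (adjusted p = 0.0381) and 0.30 ± 0.16 in GMPs (adjusted p = 0.186), neither of which was called, and the CLP estimate exceeded the MPP mean by 1.14 ± 0.18 (adjusted p = 4.13e-05). MEPs had the lowest level at both ages, -1.55 ± 0.12 against HSCs (adjusted p = 1.19e-10). The MPP2 call was lost without Young replicate 1 (-0.72, adjusted p = 0.0342) or Aged replicate 2 (-0.71, adjusted p = 0.0327), and the MPP4 call without Aged replicate 1 (-0.64, adjusted p = 0.0255). The MPP3 call was lost without Young replicate 1 (-0.54, adjusted p = 0.0651), Aged replicate 1 (-0.69, adjusted p = 0.0203) or Aged replicate 2 (-0.60, adjusted p = 0.0465). Fits to the 4 libraries of the fraction alone did not call it in MPP3 (-0.66, adjusted p = 0.0177) or in MPP4 (-0.79, adjusted p = 0.0108). Of its exon bases 514 overlap Gm42846 on the opposite strand, and whether reads were counted by strand is not given in the sources used here.

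Transcripts of other cell types moved with age in the same MPP libraries. The summed level of 6 neutrophil markers was 654 to 695 CPM in Young and 252 to 258 CPM in Aged MPP2, and 1080 to 1082 against 175 to 238 CPM in MPP3. In MPP4 it was 28.0 to 34.8 CPM in Young and 35.2 to 36.9 CPM in Aged libraries. Sums of 6 erythroid markers were lower in Aged libraries of all 3 fractions, at 29.9 to 32.2 against 123 to 132 CPM in MPP2, 18.0 to 18.1 against 103 to 104 CPM in MPP3, and 5.64 to 6.16 against 24.6 to 25.6 CPM in MPP4. Sums of 6 macrophage markers were 99.996 to 109.7, 81.8 to 92.9 and 35.1 to 41.1 CPM in Young MPP2, MPP3 and MPP4, and 31.8 to 32.7, 25.4 to 28.1 and 7.08 to 8.75 CPM in the Aged ones. The part of the neutrophil, erythroid and macrophage transcripts in these results was not tested.

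Mxi1 (chr19:53310518-53375810), another Max-binding repressor of the Mxd family, had 56.8 to 119 CPM over all libraries. Its Young MPP4 libraries had 94.7 and 88.1 CPM and its Aged ones 70.6 and 72.9 CPM, a fall by 0.35 (SE 0.09, adjusted p = 0.00584, edgeR). That call was lost without Young MPP4 replicate 1 (-0.30, adjusted p = 0.0723), Aged MPP4 replicate 1 (-0.32, adjusted p = 0.0537) or Aged MPP4 replicate 2 (-0.37, adjusted p = 0.0269), and in a fit to the 4 MPP4 libraries alone (-0.35, adjusted p = 0.0221). In HSCs and MPP1 to MPP3 both Aged libraries were also below both Young ones, with estimates of -0.09 to -0.20 that were not called, and the mean over MPPs fell by 0.19 (SE 0.04, adjusted p = 0.00126). GMPs had the highest mean at both ages, with 105 and 94.9 CPM in Young and 114 and 119 CPM in Aged libraries. Against HSCs, Mxi1 was higher in GMPs (0.58 ± 0.06, adjusted p = 2.87e-08) and MEPs (0.37 ± 0.06, adjusted p = 1.71e-05). It shares 194 exon bases with Gm10197 on the opposite strand.

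Mnt (chr11:74830920-74845725), the broadly expressed antagonist of the network, was like Mycn highest in HSCs and scarce in GMPs and MEPs. HSC libraries had 45.3 and 43.8 CPM in Young and 40.03 and 55.1 CPM in Aged mice. Young GMP libraries had 8.41 and 5.18 CPM and Aged ones 18.3 and 16.9 CPM, and Young MEP libraries 8.58 and 8.61 CPM against 13.8 and 13.7 CPM in Aged ones. In both fractions the Aged libraries lay above the Young ones without overlap. Mnt rose in Aged GMPs by 1.37 ± 0.21 on the log2 scale (adjusted p = 5.94e-05, edgeR), the only rise among the 13 calls, and the call was kept without any 1 of the 4 GMP libraries. A fit to the 4 GMP libraries alone gave 1.37 with an adjusted p of 0.0129, above the threshold. The MEP estimate of 0.67 ± 0.21 was not called (adjusted p = 0.0181). Over the MPPs Mnt fell by 0.39 (SE 0.09, adjusted p = 0.00121), with estimates of -0.30 to -0.47 that were not called in any single MPP fraction. Fits to the 4 libraries of the fraction alone called it in MPP1 (-0.38, adjusted p = 0.0082) and MPP2 (-0.41, adjusted p = 0.00595). Beside the GMP result, summed basophil and mast cell markers were 702 CPM in both Young GMP libraries and 312 to 386 CPM in the Aged ones. Neutrophil markers summed to 275 to 276 CPM in Young and 89.1 to 121 CPM in Aged GMPs, and erythroid markers to 38.9 to 43.5 and 2.49 to 5.19 CPM. Their part in it was not tested.

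Mxd3 (chr13:55325168-55329823), the Mxd member known for its expression in dividing cells, was higher than in HSCs in all 7 other fractions. HSC libraries had 3.89 and 5.15 CPM in Young and 5.004 and 7.84 CPM in Aged mice. CLP libraries had 52.3 and 51.1 CPM in Young and 32.9 and 43.9 CPM in Aged mice, a log2 fold change against HSCs of 3.04 ± 0.14 over both ages (adjusted p = 1.71e-14, edgeR). All Aged MPP libraries lay above the Young ones of their fraction, from 14.7 and 15.3 against 13.9 and 14.2 CPM in MPP4 to 18.9 and 18.0 against 14.1 and 14.4 CPM in MPP2. The mean over MPPs was higher in Aged by 0.31 ± 0.09 (adjusted p = 0.00944), opposite to the other 5 members called there. This call did not survive DESeq2 size factors (0.28, adjusted p = 0.0160) or the loss of any of 10 of the 16 MPP libraries taken singly (adjusted p = 0.0129 to 0.0240). In CLPs both Aged libraries were below both Young ones (-0.43 ± 0.17, adjusted p = 0.0924), and the difference from the MPP mean was -0.74 ± 0.20 (adjusted p = 0.00587). It was lost without Aged CLP replicate 1 (-0.57, adjusted p = 0.0691), without either Young CLP library (-0.75 and -0.78, adjusted p = 0.0259 and 0.0179) and without Young MPP1 replicate 2 (-0.72, adjusted p = 0.0102). Mxd3 shares 105 exon bases with Prelid1 on the opposite strand. Prelid1 rose by 0.47 ± 0.05 over the MPPs (adjusted p = 4.01e-08), and reads of the shared bases cannot be told apart without counting by strand, which leaves the Mxd3 values uncertain.

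The CLP differences of Mycl, Mxd1, Mxd3 and Mxd4 stand beside a shift in the markers of other cell types. Basophil and mast cell markers summed to 1786 to 1842 CPM in Young CLP libraries and to 8.96 to 16.3 CPM in Aged ones, B lineage markers to 2572 to 2643 against 1250 CPM, and neutrophil markers to 556 to 563 against 83.8 to 155 CPM. Macrophage markers summed to 111 to 123 CPM in Young and 2.55 to 2.60 CPM in Aged CLPs. Megakaryocyte markers went the other way, with sums of 37.8 to 39.6 CPM in Young and 126 to 196 CPM in Aged CLPs (5 of 6 called higher). Their part in these differences was not tested.

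Whether the age difference was the same in all 8 fractions was tested gene by gene with an interaction term. It was called for Mycn (adjusted p = 0.00366), Mycl (adjusted p = 0.00098), Mxd1 (adjusted p = 0.00024), Mxd4 (adjusted p = 0.000122) and Mnt (adjusted p = 0.000121, edgeR quasi-likelihood test, n = 2 libraries in each of 16 groups), 5 of 9 members against 34.9% of all genes. Myc (adjusted p = 0.797), Max (0.969), Mxd3 (0.0394) and Mxi1 (0.0369) were not called. The DESeq2 likelihood ratio test did call Mxd3 (adjusted p = 0.00311) and Mxi1 (adjusted p = 0.0017). The Mycn call was lost without Young HSC replicate 1 (0.0172), Young HSC replicate 2 (0.0238), Aged HSC replicate 2 (0.0124) or Aged MPP4 replicate 1 (0.0103). The edgeR calls for Mycl, Mxd1, Mxd4 and Mnt were kept with each library left out in turn.

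Between fractions, with both ages averaged, the number of members called against HSCs was 2 of 9 for MPP1 (32.1% of all genes). MPP2 and MPP3 had 4 each (50.2% and 48.5%), MPP4 had 5 (53.1%), GMPs and MEPs had 7 each (72.1% and 76.3%) and CLPs had 5 (67.1%). These 7 comparisons share the HSC libraries. Mycn was lower and Mxd3 higher in all 7, and Mnt and Mxd1 were lower in all but MPP1. Mnt lay 2.08 below HSCs on the log2 scale in both GMPs and MEPs (log2 fold change -2.08 ± 0.14 each, adjusted p = 8.16e-12 and 4.85e-12, edgeR). In MPP4 the Mnt call (-0.41, adjusted p = 0.00742) was lost without Young HSC replicate 1 or 2 (adjusted p = 0.0231 and 0.0152), Aged HSC replicate 2 (0.0888), Young MPP4 replicate 2 (0.0483), or Aged MPP4 replicate 1 or 2 (0.0147 and 0.0307). The Mxd1 calls there and in MPP2 and MPP3 were lost without Aged HSC replicate 1 (adjusted p = 0.0113, 0.0247 and 0.0236) and up to 3 other libraries (adjusted p = 0.0104 to 0.0250), and the Mnt call in MPP2 without Aged HSC replicate 2 (adjusted p = 0.0155).

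Seen as a sum, activator transcripts exceeded those of the 5 antagonists in every group. Activators made up 76.8% of the summed CPM per kb of both in Young CLPs, the lowest group, and 90.3% in Young GMPs, the highest. Antagonist transcripts summed to 48.1 CPM per kb in Young and 37.6 CPM per kb in Aged MPP4, and to 34.0 and 43.1 CPM per kb in GMPs. Activators summed to 211 and 221 CPM per kb in Young and Aged MPP4, with Mycn supplying 14.8% of them in Young and 6.75% in Aged cells. These sums describe transcripts, were given no test, and hold no Max.

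**Figure D3:**
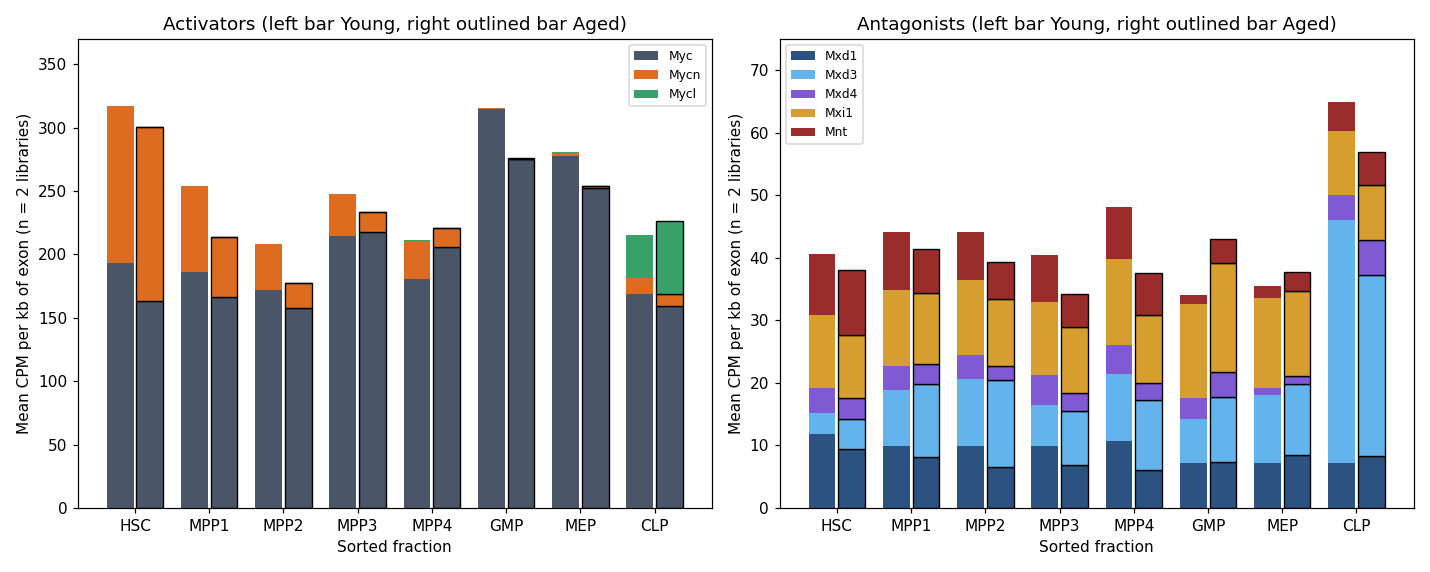
Mean CPM per kb of exon (vertical axis, 2 libraries a bar) of the 3 activators (left) and the 5 antagonists (right, a smaller scale) stacked in each fraction, with Young at the left and Aged outlined at the right of each pair. Mycn is the orange part in HSCs and MPPs, Mycl the green part in CLPs, and Mxd3 makes up most of the antagonist transcripts in CLPs.

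Genes that the network is known to act on rose in Aged MPPs, where Myc was not called. Of 55 Myc target genes, many of which act in ribosome biogenesis, nucleotide synthesis or protein folding, 52 rose and 0 fell in the mean over MPPs. Their median log2 fold change was 0.36 against -0.04 over all 14154 tested genes, of which 2681 rose and 36.7% were called in either direction. The largest rises were those of Cad (0.75 ± 0.05), the enzyme that starts pyrimidine synthesis, Noc4l (0.70 ± 0.05), a factor of small ribosomal subunit assembly, and Dctpp1 (0.64 ± 0.06), a nucleotide pyrophosphatase (adjusted p = 5.29e-10, 1.17e-10 and 3.97e-08, edgeR). Taken by fraction, MPP1 had 14 of 55 higher (6.8% of all genes called), MPP2 19 (7.81%), MPP3 35 (13.9%) and MPP4 41 (16.6%), and edgeR and DESeq2 alike called 0 lower in these, as did an unadjusted p under 0.05. In HSCs 10 rose and 0 fell (5.4% of all genes called), a number that ranged from 1 to 8 with single HSC libraries left out and was 0 in a fit to the 4 HSC libraries alone. GMPs had 8 higher and 9 lower (18.9% of all genes called), and MEPs 16 higher and 3 lower (20.8%). CLPs went the other way, with 0 higher and 12 lower (10.4% of all genes called) and a median of -0.19, and Bysl (-0.53 ± 0.08), a ribosome assembly factor, the mitochondrial chaperonin gene Hspe1 (-0.50 ± 0.10) and Cad (-0.44 ± 0.11) fell most (adjusted p = 0.00012, 0.000816 and 0.00679). With single CLP libraries left out 5 to 10 fell, a fit to the 4 CLP libraries alone called 0, and DESeq2 over all libraries called 17. The age difference in CLPs was called lower than that in MPPs for 43 of the 55 and higher for 0. Of all 14154 tested genes 22.6% were called in this comparison, 1739 of them lower.

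Of 24 cell cycle genes all 24 rose in the mean over MPPs (36.7% of all genes called, median 0.50), led by Rrm2 (0.81 ± 0.04), the small subunit of ribonucleotide reductase, the mitotic kinase gene Aurkb (0.77 ± 0.05) and thymidylate synthase, Tyms (0.76 ± 0.04, adjusted p = 1.17e-12, 9.7e-11 and 2.14e-12, edgeR). In HSCs 13 of 24 rose and 0 fell (5.4% of all genes called), but only 1 was called in a fit to the 4 HSC libraries alone. In CLPs 13 fell and 0 rose (10.4% of all genes called), led by the survivin gene Birc5 (-0.62 ± 0.09), Rrm2 (-0.55 ± 0.08) and the cyclin gene Ccnb1 (-0.54 ± 0.08, adjusted p = 3.75e-05, 2.46e-05 and 6.98e-05). From 4 to 17 fell with single CLP libraries left out, and 0 in a fit to the 4 CLP libraries alone. GMPs had 11 higher and 6 lower (18.9% of all genes called), and MEPs 3 higher and 6 lower (20.8%). Both lists were chosen with earlier results of these libraries known, and their direction is not independent evidence.

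**Figure D4:**
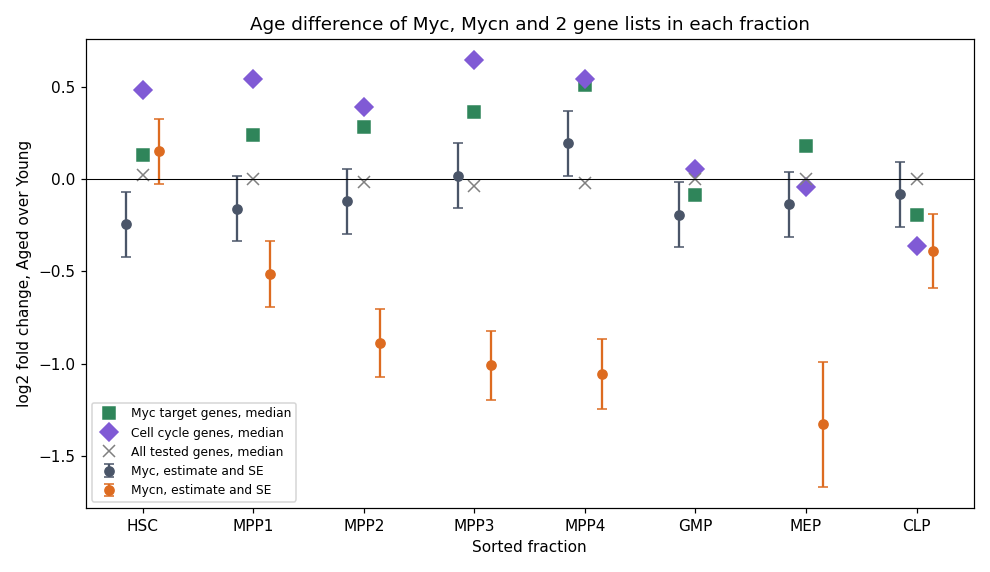
Log2 fold change of Aged over Young (vertical axis) in each fraction, with the estimate and SE of Myc and Mycn, and the median of the Myc target list (55 genes), the cell cycle list (24 genes) and all tested genes. Mycn in GMPs is left out because its Aged libraries were at the floor. From MPP1 to MPP4 the medians of both lists lie above 0, the Mycn estimates below 0 and the Myc estimates within 0.2 of 0.

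Among the factors that the network works through, the coactivator, turnover and Mlx lists were called in the mean over MPPs about as often as genes at large (36.7%). Of 16 genes of the Sin3 corepressor, which Mxd proteins and Mnt recruit, 6 rose and 4 fell in the mean over MPPs (36.7% of all genes called), with Rbbp7, a histone-binding subunit, higher (0.36 ± 0.03, adjusted p = 1.26e-09, edgeR) and the large subunits Arid4a (-0.46 ± 0.07, adjusted p = 1.45e-05) and Arid4b (-0.42 ± 0.08, adjusted p = 0.000171) lower. In CLPs the histone deacetylase gene Hdac2 (-0.33 ± 0.07) and Sap30 (-0.36 ± 0.09) fell (adjusted p = 0.00178 and 0.00684) and no gene of that list was called higher, so that 2 of 16 were called against 10.4% of all genes. Of 15 coactivators and partners of Myc 5 rose and 1 fell over the MPPs, against 36.7% of all genes called. Ruvbl2, a helicase-like subunit of chromatin remodelers, rose (0.51 ± 0.05, adjusted p = 1.13e-08), as did the acetyltransferase gene Kat2a (0.30 ± 0.04, adjusted p = 1.15e-05), and Bptf, a subunit of the NURF remodeler, fell (-0.49 ± 0.10, adjusted p = 0.000545).

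Of 11 genes of Myc protein turnover 3 rose and 1 fell over the MPPs, again against 36.7% of all genes. Skp2 (0.42 ± 0.05) and Stub1 (0.33 ± 0.04), both ubiquitin ligase components, rose (adjusted p = 4.8e-07 and 1.07e-06, edgeR), and Gsk3b (-0.31 ± 0.08), a kinase that marks Myc for degradation, fell (adjusted p = 0.00256). Of the parallel Mlx and Mga arm, 3 of 4 genes were tested and 1 fell over the MPPs (36.7% of all genes called), Mlxip (-0.24 ± 0.06, adjusted p = 0.00164), the glucose-responsive partner of Mlx. In CLPs edgeR called 0 genes of the coactivator, turnover and Mlx lists. The unadjusted p was under 0.05 for 5, 1 and 1 of them, and DESeq2 called 1, 0 and 0.

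The genes most like each member over the 16 groups were found by Pearson's r of log2 group means, among 10668 tested genes that averaged 5 CPM or more. For Mycn these were Rxra (r = 0.985), Ltb (0.981) and Src (0.981), and for Mnt Lzts2 (0.982), Pbx2 (0.976) and Znf512b (0.976). Mycl was followed by Upb1 (0.976) and Amica1 (0.971), Mxd4 by Agtrap (0.964), Stx16 (0.941) and Zfp263 (0.938), and Max by Rce1 (0.956), Bax (0.949) and Rps19bp1 (0.946). Lower values were reached for Mxd3 (Hnrnpul1, 0.944, Smarca4, 0.941, and Stk38, 0.917), Myc (2410016O06Rik, 0.923, Nadk, 0.917, and Acaa2, 0.913), Mxi1 (Svip, 0.917, Nfxl1, 0.914, and Cdc42ep3, 0.908) and Mxd1 (Trim8, 0.886, Rnf14, 0.861, and Pgpep1, 0.855). Among the members themselves the closest pair was Mycn and Mnt (0.874) and the most opposed Myc and Mycn (-0.802). The 16 points share libraries between genes and hold 2 ages of each fraction, so these values describe the groups and carry no test.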

How the data were processed

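RNA was reverse transcribed and amplified with a low-input kit and sequenced as single reads. The labels name a HiSeq1500 and the study's methods another HiSeq model. The authors aligned reads to mm10 with TopHat2 2.0.13 and Bowtie2 2.1.0 and deposited raw counts per gene generated with StringTie. Strand use in counting is not given in the sources used here. The deposited table of DESeq2-normalized values, and the authors' fold changes and p-values of Aged against Young, were not used.

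The members and lists were chosen with earlier results of these data known. Genes were filtered (filterByExpr, 14154 of 24421 kept), scaled by TMM and fitted with 1 mean for each of 16 groups over 32 libraries in edgeR 4.0.16 (quasi-likelihood test, R 4.3.3). P-values were adjusted by Benjamini-Hochberg over all tested genes, with calls at 0.01. The fit was tested on simulated data. Replicate numbers did not pair libraries (correlations of deviations between -0.0674 and 0.107 over 120 pairs of groups, 2 over 0.1). Exon lengths and coordinates came from GENCODE M21 (GRCm38, the build of mm10). All 9 members were named, from each pathway list up to 3 called genes with the largest change in the MPP mean and up to 3 in CLPs, and for each member the 3 genes with the highest correlation, of which 1 is not reported here. Floors cover counting error only.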

Additional observations from a re-analysis of the deposited data

Results flagged for a closer look

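The age difference of 5 members differed between fractions by the interaction term over the 8 fractions, with an adjusted p of 0.00366 for Mycn, 0.00098 for Mycl, 0.00024 for Mxd1, 0.000122 for Mxd4 and 0.000121 for Mnt (edgeR quasi-likelihood test, Benjamini-Hochberg adjustment). Over all genes 34.9% were called by that term. In 4 further comparisons the difference between 2 age effects was itself called. For HSC minus the MPP mean 3.01% of all genes were called, and for CLP minus the MPP mean 22.6%. The age effect on Mycn in HSCs exceeded its mean over MPP1 to MPP4 by 1.02 on the log2 scale. In CLPs the age effect exceeded the MPP mean by 0.78 for Mxd1 and by 1.14 for Mxd4, and for Mxd3 it lay below it (-0.74). The calls for Mycn, Mxd1 and Mxd3 were lost with certain single libraries left out, as given above.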

How the results depend on the processing

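No member changed direction while called under any alternative. Counts of members called with age moved in fits to the 4 libraries of 1 fraction, to 2 (MPP1), 5 (MPP2), 1 (MPP3), 2 (MPP4), 0 (GMPs) and 0 (MEPs). At an adjusted p under 0.05 they moved to 2 in GMPs, 3 in MEPs and 2 in CLPs, and in DESeq2 to 1 in MPP1 and 2 in CLPs. With 1 library left out the counts ranged from 0 to 1 (MPP2), 0 to 2 (MPP3), 2 to 4 (MPP4), 1 to 3 (GMPs), 1 to 2 (MEPs) and 0 to 1 (CLPs), from 0 to 1 for HSC minus the MPP mean, from 1 to 3 for CLP minus the MPP mean, and from 3 to 5 for MPP4 against HSC. A library left out leaves 1 for its group, assumed to vary like the others. Replicate numbers did not pair libraries. With a replicate block, Mnt in MEPs was called (0.68, adjusted p = 0.00961) and Mxd3 in the MPP mean was not (0.31, adjusted p = 0.0110), and no other call of a member changed. Without the filter Mxd3 was not called there either (0.28, adjusted p = 0.0232). Of 171 results for single members, 161 kept their call in DESeq2 and 168 under DESeq2 size factors. Under DESeq2 size factors 50 of 55 Myc target genes rose in the MPP mean and 12 fell in CLPs. Depth limited Mycl outside CLPs and Mycn in GMPs, and the spread between duplicates limited Max.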
